A study of Pimephales promelas with 10 samples.

Results

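The transcripts described here are the 200 detected array probes whose signal differed most between control testis explants. The explants came from Pimephales promelas, the fathead minnow, a freshwater fish common in toxicology. They were chosen from 15208 probes. A probe was kept if it was well above background on all 10 arrays, which held for 11935 probes. The 200 with the highest mean signal over the control arrays were then dropped, and of the remaining 11735 the 200 with the largest standard deviation (SD) over the 6 control arrays are the members. The other 11535 are called the other detected probes. Each value is a level on a log2 scale, the log2 of the processed spot signal minus the array's own 75th percentile, so 0 is the 75th percentile of an array and a difference of 1 is a 2-fold difference in signal.

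Pieces of testis from male fish were kept in culture for 12 h. In the P4 group, 4 samples, numbered 4, 5, 7 and 8 in their titles, received 1e-06 M progesterone. The Control group holds 6 samples without progesterone, numbered 2, 4, 5, 7, 8 and 10. Each sample's total RNA, labelled with the dye Cy3, was put on its own one-colour Agilent array. The labels give neither the fish an explant came from nor its strain, age or season, nor the meaning of the numbers. Every p-value given here therefore measures only how these samples differ among themselves, in part perhaps technically.

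A fish testis is a mixed tissue. Germ cells develop in cysts that Sertoli cells enclose, and the steroid-making Leydig cells lie between the tubules. Progesterone is an intermediate on the way from cholesterol to the androgens, and in fish related progestins take part in the maturation of sperm. Males of one species can differ in the stage of their germ cells and in the alleles they carry, and an explant samples only a piece of the gonad. In RNA of a whole explant, fewer cells of a type and less RNA per cell cannot be told apart.

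The probes carry no gene names. Of the members, 165 name a contig of a sequence assembly, and they are given here by probe name with the contig where there is one. None of the 15208 probes (0) matched the species' gene table, so the testis label was not checked against marker genes, and no role is given to a member. The 75th percentile of the signal was 1882 to 3350 intensity units on the P4 arrays and 1382 to 3927 on the Control arrays. The share of probes called well above background was 88.8% to 95.2% on the P4 arrays and 82.6% to 92.1% on the Control arrays, and 0 were saturated. The arrays lay on 4 slides. Slide 1 held P4 5, P4 8 and Control 8, slide 2 held Control 10, slide 3 held P4 4, P4 7, Control 2 and Control 7, and slide 4 held Control 4 and Control 5.

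The SD over the Control arrays, which chose the members, was 1.66 to 4.46 with a median of 1.94, and the median of the other detected probes was 0.54. The range over the Control arrays was 11.3-fold to 3365-fold for the members, with a median of 33.0-fold. At the threshold, UF_Ppr_AF_114671 and UF_Ppr_AF_113083 (both 1.66) lay just inside, and UF_Ppr_AF_113778 (1.66) and UF_Ppr_AF_118276 (1.65) just outside. The members were dimmer than the other detected probes at the median and the upper quartile, but not at the lower quartile. Their mean level over the Control arrays had a median of -2.41 and a range of -5.67 to 3.17. The other detected probes had a median of -1.88. The quartiles were -3.59 and -0.57 for the members, against -4.07 and 0.49 for the others. On single arrays members reached lower levels, such as -7.43 for UF_Ppr_AF_111250 on Control 8. The part of low signal in the members' spread was not tested beyond the changes of scaling and input signal.

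The question put to the P4 arrays, whose levels the ranking did not use, is whether the same probes vary there. Most members did. The P4 arrays did enter the background filter, and their numbers also occur in Control. If a number stands for a shared source, the P4 arrays measure again sources that helped to choose the members. The labels do not settle this. The median SD over the 4 P4 arrays was 1.34 for the members and 0.34 for the other detected probes. The quartiles were 0.76 and 2.02 for the members, against 0.22 and 0.51 for the others. Over the Control arrays with the same numbers as the P4 arrays (4, 5, 7 and 8), the median SD of the members was 1.94. When the 200 most variable probes were chosen on the P4 arrays in the same way, 86 were members, 43.0% of the list, while 114 came from the other detected probes, 0.988% of those. The P4 SD of 145 members (72.5%) lay above the 90th percentile of the other detected probes, and that of 13 members lay at or below their median.

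**Figure D1:**
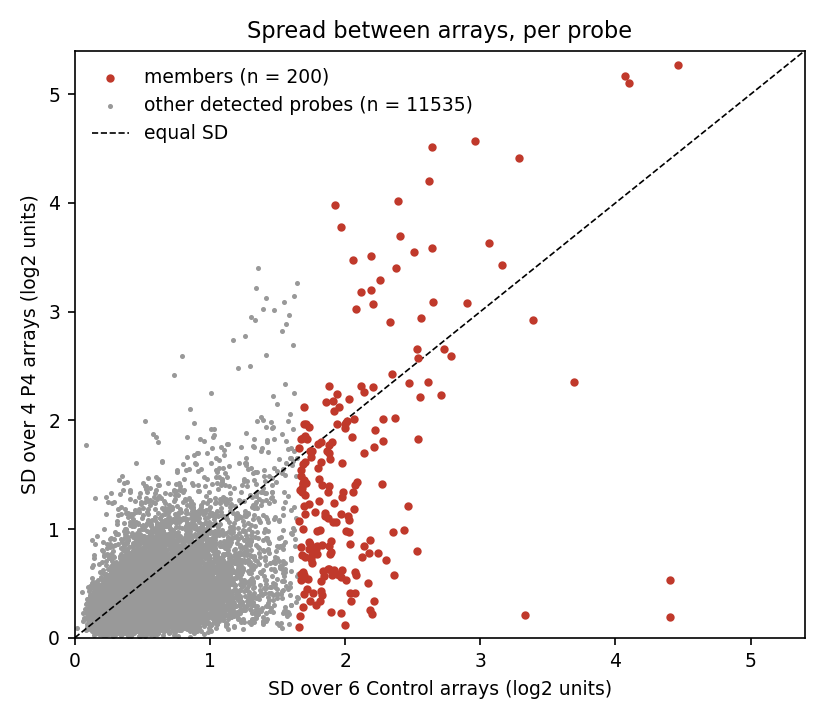
SD of each member (coloured points) and of each other detected probe (grey) over the 4 P4 arrays on the vertical axis against its SD over the 6 Control arrays on the horizontal axis, both in log2 units. The members lie to the right of the threshold by their choice. Vertically they run between 0.10 and 5.26, with a median of 1.34 against 0.34 for the others.

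The member with the largest spread in both groups was UF_Ppr_AF_102654, on contig FJU.102.C8. Its level was -5.56, -2.47, 1.29 and 6.67 on P4 4, 5, 7 and 8, and -5.08, -1.05, -1.09, 3.83, -5.58 and 5.29 on Control 2, 4, 5, 7, 8 and 10. P4 8, Control 10 and Control 7 were high, the remaining arrays were spread below them, and the groups overlapped. UF_Ppr_AF_110866, on contig FJU.592.C3, had levels of -6.32, 2.39, 4.57 and -3.73 on P4 4, 5, 7 and 8, and 3.96, -6.07, 3.89, 3.41, -2.15 and -0.96 on Control 2, 4, 5, 7, 8 and 10. Numbers 5 and 7 were high in both groups and number 4 was lowest in both. The level of UF_Ppr_AF_104535, on contig FJU.1941.C1, was 0.21, -0.50, -5.31 and -6.66 on P4 4, 5, 7 and 8, and -6.30, 0.15, -0.91, -6.17, -6.64 and -6.70 on Control 2, 4, 5, 7, 8 and 10. In both groups numbers 4 and 5 were high, and a gap of 4.40 log2 units separated them from every remaining array.

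UF_Ppr_AF_103955, on contig FJU.104.C1, was at 1.42, -5.02, -6.61 and 2.04 on P4 4, 5, 7 and 8, and at 4.16, 1.31, -2.70, -4.18, 2.28 and 2.66 on Control 2, 4, 5, 7, 8 and 10. Here numbers 5 and 7 were the low ones in both groups. UF_Ppr_AF_102681, on contig FJU.3632.C1, was at 1.70, -3.65, 0.12 and -2.02 on P4 4, 5, 7 and 8, and at -5.10, 2.49, -2.91, 2.29, -3.45 and 3.49 on Control 2, 4, 5, 7, 8 and 10. Numbers 4 and 7 were above numbers 5 and 8 in both groups.

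Many members took levels of this kind, in separate high and low sets. Sorted over all 10 arrays, the levels of 73 members (36.5%) left a gap of at least 2 log2 units with at least 2 arrays on each side, as did those of 26 of the other detected probes (0.225%). This definition was chosen after the values had been seen, and the Control spread that chose the members favours such a gap. It also leaves out a member set apart by 1 array alone. A number with both of its arrays on the larger side counts as agreeing. The counts by number that follow are therefore favoured by the definition. In 63 of the 73 members both sides of the gap held P4 arrays. In 51 of the 73 the P4 and the Control array of every shared number were on the same side, in 15 this held for 3 of the 4 numbers, in 6 for 2 and in 1 for 1. Among the 26 other detected probes all 4 numbers were on the same side in 19.

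**Figure D2:**
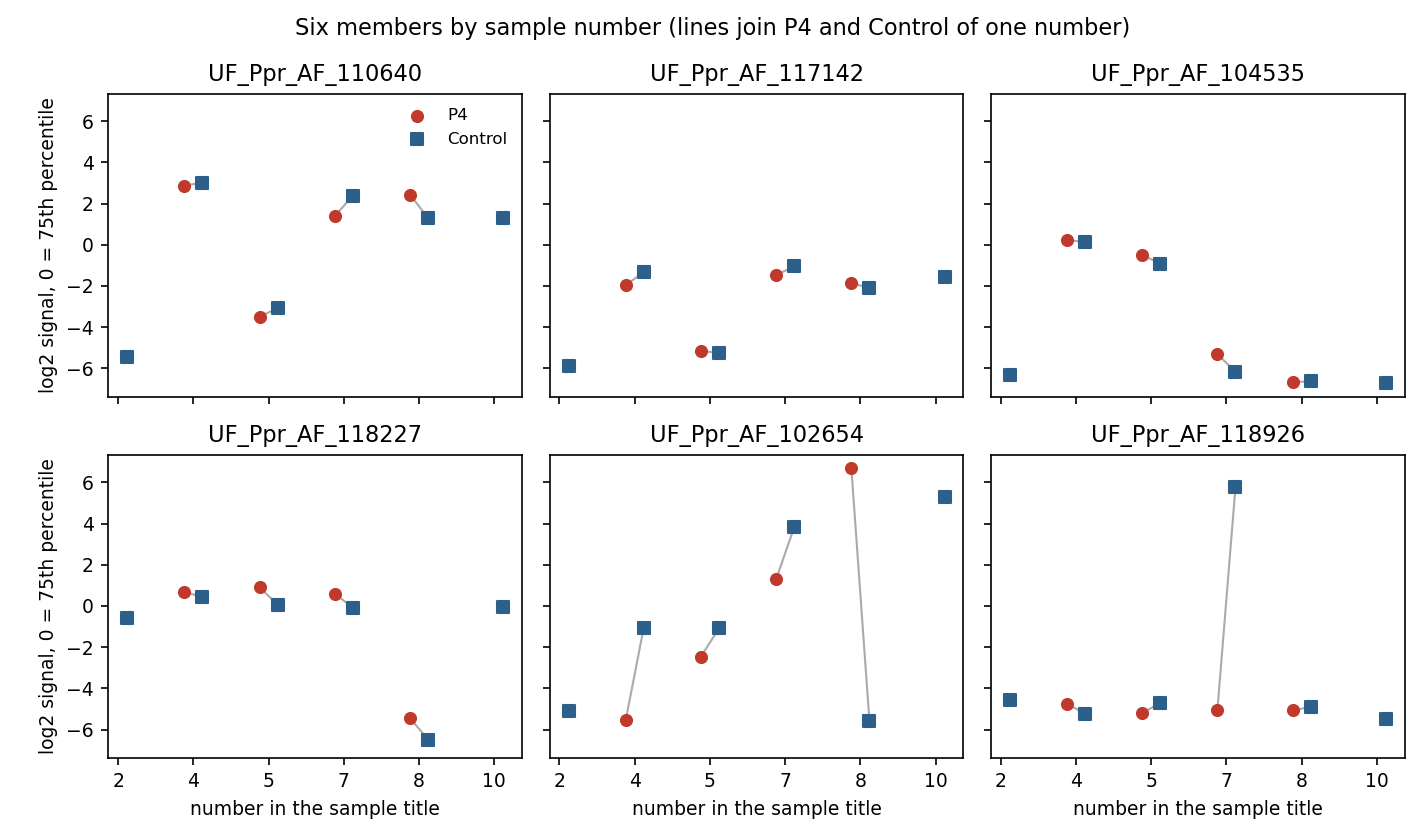
Levels (log2, array 75th percentile at 0) of 6 members by sample number, with P4 and Control values of the same number joined by a line. For UF_Ppr_AF_104535 and UF_Ppr_AF_117142 the joined values lie close together. Numbers 4 and 5 lie far above the rest for UF_Ppr_AF_104535. Number 5 and Control 2 lie far below the rest for UF_Ppr_AF_117142. For UF_Ppr_AF_118926 Control 7 stands alone at 5.78.

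Agreement by number was then read over all members. The median absolute difference between a P4 and a Control array was 0.60 log2 units for arrays of the same number and 1.47 for arrays of different numbers. Among the other detected probes it was 0.33 and 0.44. Of the Control arrays, only 4, 5, 7 and 8 entered these medians. By number, the median of the members was 0.44 for number 4, 1.02 for number 5, 0.54 for number 7 and 0.54 for number 8. All 4 same-number differences were within 1 log2 unit in 49 of the 200 members and in 7564 of the 11535 other detected probes. In 40 of the 49 members the P4 levels also ranged over more than 2 log2 units, which is 20.0% of the members. Both conditions held for 268 or 2.32% of the other detected probes. The choice of members for a wide Control spread favours a wide P4 range here.

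Of the 4 shared numbers, the one that was highest among the Control arrays was also highest among the P4 arrays in 103 members (51.5%), against 36.5% of the other detected probes. The lowest number was shared in 110 members (55.0%), against 40.8% of the others. Control 5 was most often the highest, in 100 members, and P4 5 was then the highest in 51 of them. Number 4 was highest among the Controls in 31 members and in P4 too in 22. The counts were 44 and 19 for number 7 and 25 and 11 for number 8. At the low end Control 8 led, in 94 members, with P4 8 lowest in 38 of them.

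The same comparison can be made array by array, by correlating across the members the deviation of each array from its group's mean. Pearson's r between same-numbered arrays was 0.69 for number 4, 0.74 for number 5, 0.55 for number 7 and 0.26 for number 8, with a mean of 0.56. Between the 20 pairs of different number it ranged from -0.41 to 0.41, with a mean of -0.11. Deviations are taken from the group's own mean, so a high same-number r pushes the different-number values down. The different-number values are therefore no independent reference. The other detected probes gave 0.28 to 0.55 for the same number, with a mean of 0.37, and -0.22 to 0.26 otherwise. These are descriptions over probes that share an array, and probes are not independent. The arrays of number 4 lay on different slides, as did those of number 5, while both arrays of number 7 shared a slide and so did both of number 8. Arrays of different number on 1 slide (P4 4 with Control 2 and Control 7, P4 5 with Control 8, P4 7 with Control 2) had r between -0.24 and -0.01 over the members.

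**Figure D3:**
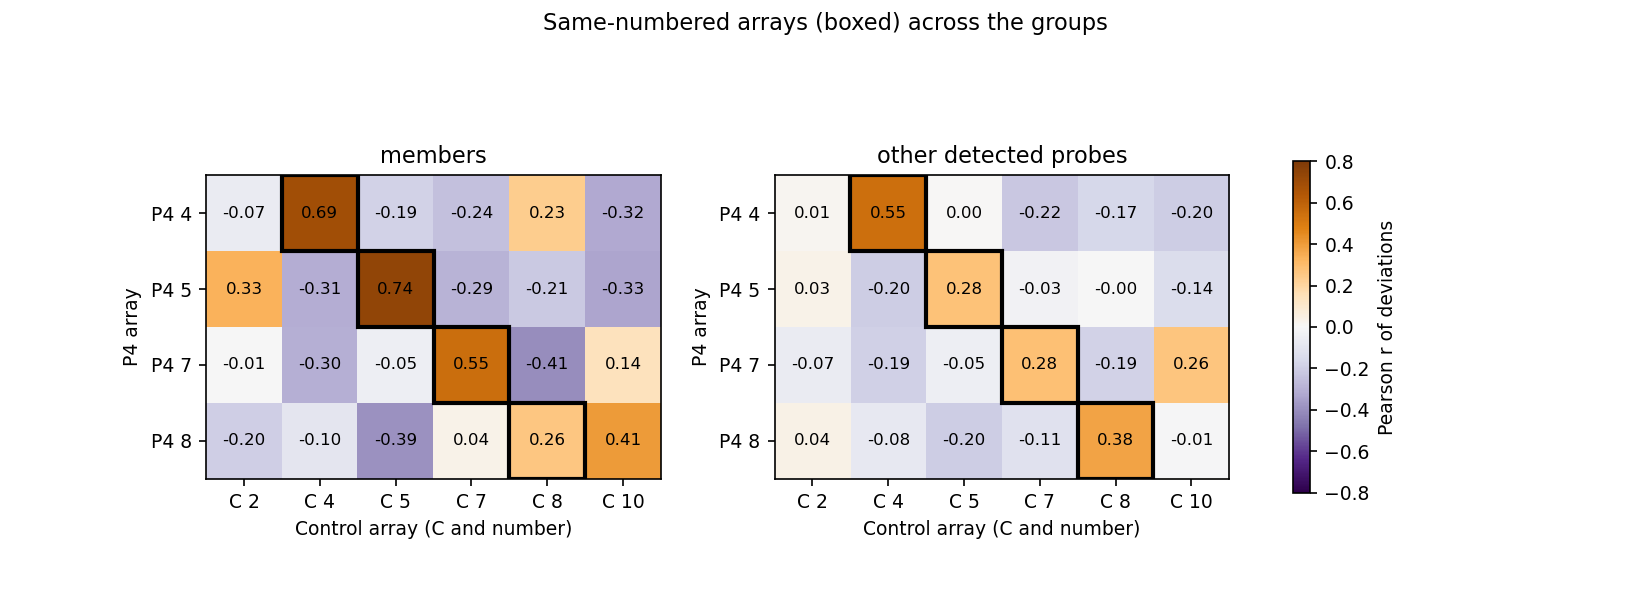
Pearson's r of deviations from the group mean between each P4 array (rows) and each Control array (columns), across the 200 members (left) and the 11535 other detected probes (right), with same-numbered pairs boxed. Number 8 is the exception among the members, where P4 8 has r 0.26 with Control 8 and 0.41 with Control 10.

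The members were sorted into covarying groups by average linkage on 1 minus Pearson's r over the 6 Control arrays, with the tree cut at 0.4. Of the resulting 20 groups, 7 had at least 10 members and together held 141, and 59 members were in smaller groups. Correlation within a group over the Control arrays is what made it a group. Whether a group moves together in the P4 arrays was measured by its coherence. This is the variance of the group's mean profile over the mean variance of its members. The P4 arrays did not enter the grouping, but Control arrays of the same numbers did. Coherence is 1 if all members move alike and near 1 over the group size if they move independently. Weighted by size, the 7 groups averaged 0.27 over the P4 arrays, where independent members would give 0.05. All 200 members taken as 1 set had 0.02. The groups differed widely in this, from 0.56 to 0.02.

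**Figure D4:**
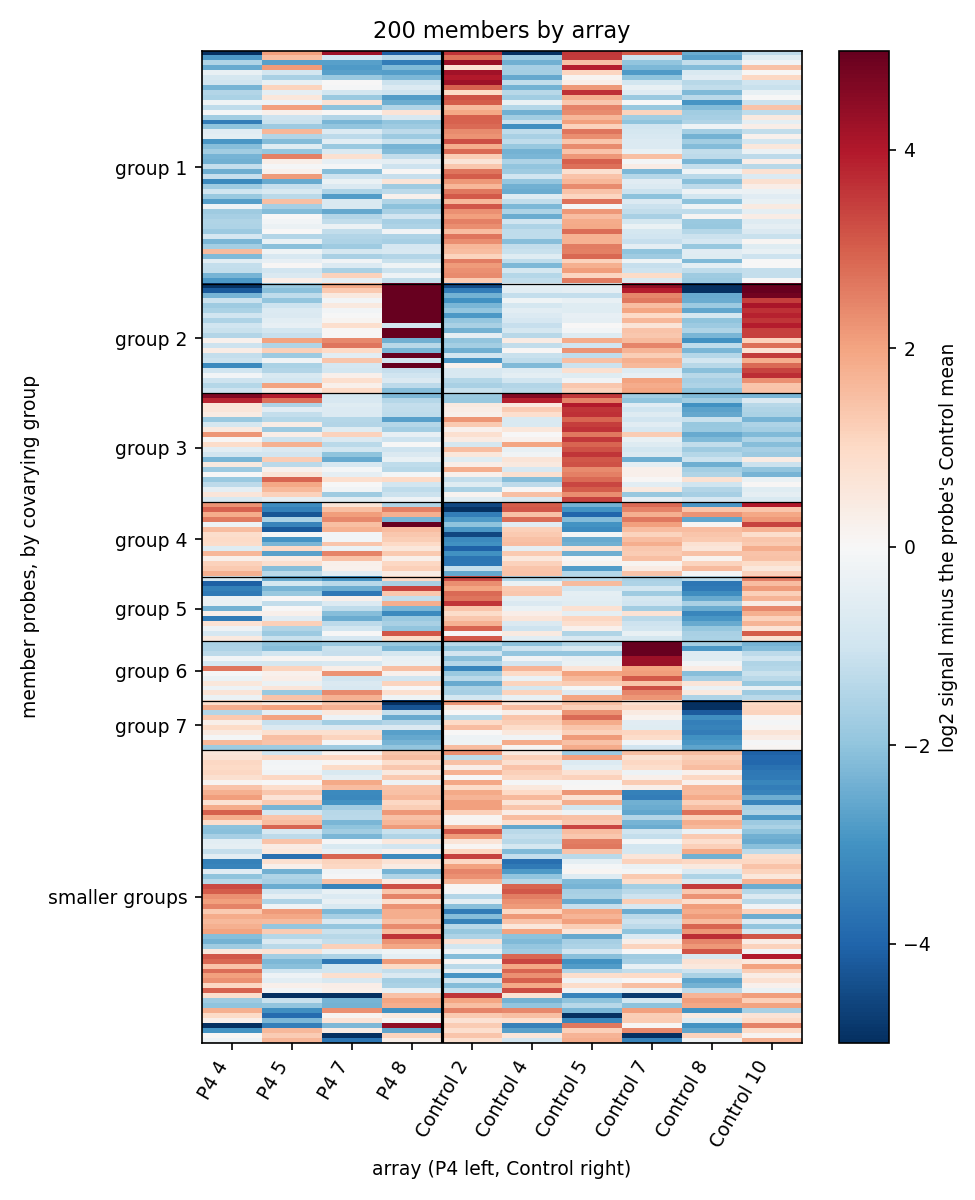
Level of each member (rows, sorted by covarying group) on each array (columns, P4 arrays left and Control arrays right), as log2 signal minus the member's own mean over the Control arrays, with colours limited at 5 units either way. Group 1 is high on Control 2 and Control 5 and has no equally high P4 array, whereas groups 4 and 7 have low columns in both groups of samples (P4 5 and Control 5 in group 4, P4 8 and Control 8 in group 7).

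Groups 4 and 7 recurred in the P4 arrays, each through 1 array. Group 4 (15 members, coherence 0.50 over P4) had mean levels of -0.61, -3.83, -0.92 and -0.83 on P4 4, 5, 7 and 8, and -5.22, -0.51, -3.78, -0.30, -1.35 and -0.18 on Control 2, 4, 5, 7, 8 and 10. Number 5 was low in both groups, and Control 2, whose number has no P4 array, was low as well. P4 5 was below P4 4 in 13 of the 15 members, as the lowest P4 array in 10. The median difference of P4 5 minus Control 5 was 0.07. Without P4 5 the coherence of the remaining 3 P4 arrays was 0.0156. Its most central member, UF_Ppr_AF_117142 on contig FJU.3916.C1, was at -1.96, -5.15, -1.48 and -1.85 on P4 4, 5, 7 and 8, and at -5.89, -1.33, -5.26, -1.04, -2.11 and -1.56 on Control 2, 4, 5, 7, 8 and 10. P4 5, Control 2 and Control 5 were the low arrays.

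UF_Ppr_AF_110640, on contig FJU.4178.C1, had the same low arrays. It was at 2.87, -3.49, 1.39 and 2.43 on P4 4, 5, 7 and 8, and at -5.47, 3.01, -3.08, 2.39, 1.29 and 1.31 on Control 2, 4, 5, 7, 8 and 10. The remaining central members, UF_Ppr_AF_115773 and UF_Ppr_AF_118699 on contig FJU.8152.C1, had P4 5 lowest as well, at -5.97 and -4.08. Of the group's members, 8 had a gap of at least 2 log2 units. In all 8 every shared number was on the same side, which the definition of the gap favours.

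Group 7 (10 members, coherence 0.56 over P4) was low on number 8. Its mean levels were -1.51, -1.49, -1.80 and -4.52 on P4 4, 5, 7 and 8, and -1.40, -1.07, -0.14, -1.68, -5.65 and -1.47 on Control 2, 4, 5, 7, 8 and 10. Control 8 was the lowest Control array in all 10 members, and P4 8 the lowest P4 array in 8. Without P4 8 the coherence of the remaining 3 P4 arrays was 0.0503. UF_Ppr_AF_118227, on contig FJU.13516.C1, was at 0.69, 0.90, 0.59 and -5.45 on P4 4, 5, 7 and 8, and at -0.61, 0.42, 0.06, -0.09, -6.50 and -0.06 on Control 2, 4, 5, 7, 8 and 10. The 2 arrays of number 8 were far below all others. The central members UF_Ppr_AF_100015, on contig FJU_SB_30.632.C1, and UF_Ppr_AF_111250 did not have P4 8 as their lowest P4 array. On P4 8 they were at -1.48 and -5.49, against -1.74 and -3.73 on P4 4, and on Control 8 at -4.42 and -7.43.

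Group 2 (22 members, coherence 0.38 over P4) moved most widely in P4, with a median P4 SD of 3.24 against 2.04 over Control. With 1 P4 array left out at a time its coherence was 0.311 to 0.549, highest without P4 8. Independent members would give 0.045. Group 2 contains 12 members that were highest on P4 8 among the P4 arrays, a split made after the values had been seen. In all 12 the order was P4 8, then Control 10, then Control 7, then the 7 remaining arrays. Their mean level was -4.31 ± 1.46 on P4 4, -3.50 ± 1.72 on P4 5, -1.97 ± 1.94 on P4 7 and 4.37 ± 1.81 on P4 8, and -4.60 ± 1.72 on Control 8, -0.10 ± 2.28 on Control 7 and 1.80 ± 2.07 on Control 10 (SD over the 12 members). P4 8 exceeded Control 8 by 6.83 to 12.59 log2 units, with a median of 8.38 or 332-fold. It exceeded the next P4 array by 5.38 to 7.36 and Control 10 by 1.38 to 3.75. None of these spots carried a quality flag (0 spots).

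UF_Ppr_AF_102654 (given above) and UF_Ppr_AF_106383, on contig FJU.99.C4, belong to these 12. UF_Ppr_AF_106383 was at -5.65, -3.51, -0.14 and 6.19 on P4 4, 5, 7 and 8, and at -4.88, -1.95, -1.90, 2.49, -6.41 and 4.07 on Control 2, 4, 5, 7, 8 and 10. UF_Ppr_AF_102718, on contig FJU_SB_30.56.C1, was at -0.59, 0.28, 0.86 and 6.87 on P4 4, 5, 7 and 8, and at -0.95, 0.46, 0.37, 2.97, -1.61 and 4.62 on Control 2, 4, 5, 7, 8 and 10. In each, P4 8 stood far above the array of the same number in Control, which was the lowest of the 6. UF_Ppr_AF_101877 (contig FJU.543.C2), UF_Ppr_AF_102268 (contig FJU.255.C2) and UF_Ppr_AF_118635 (contig FJU.163.C3) reached 5.09, 1.95 and 1.96 on P4 8, against -5.24, -6.31 and -5.16 on Control 8. The 12 move against the number that the groups share. The other 10 members of group 2 had a mean of -3.87 on P4 8 and -4.24 on Control 8, and a coherence of 0.55 over P4.

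UF_Ppr_AF_105655, on contig FJU.139.C2, is in a smaller group but was also highest on P4 8. It was at -4.91, -2.09, -0.91 and 5.75 on P4 4, 5, 7 and 8, and at 2.59, -2.05, 3.96, 1.39, -1.67 and 3.80 on Control 2, 4, 5, 7, 8 and 10. Among the 11735 probes from which the members were chosen, 43 lay above all 9 other arrays by more than 2 log2 units on P4 8, and 12 of these are members. On P4 4, 5 and 7 there were 0 such probes, and on the Control arrays between 2 and 40, the most on Control 5, where 11 are members. Some lay near each other on the array. On P4 8, 14 of the 43 had another such probe within 5 rows and columns, among them 1 member. On Control 5 this held for 18 of the 40, among them 6 of the 11 members, and on Control 7 for 6 of 12, among them 5 of 6 members. On Control 2, 4, 8 and 10 it held for 0. The share that scattered probes would give was not worked out for any array, and the part of position in these levels was not tested.

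Group 1 is the largest, with 47 members, and recurred weakly in P4 (coherence 0.20, against 0.02 for independent members). Its mean levels were -3.43, -2.05, -2.73 and -3.09 on P4 4, 5, 7 and 8, and 0.67, -3.48, 0.24, -2.60, -3.17 and -2.01 on Control 2, 4, 5, 7, 8 and 10. Control 2 and Control 5 stood above every other array. Control 5 was above Control 4 in all 47 members, by a median of 3.81 log2 units. P4 5 was above P4 4 in 36 of the 47, by a median of 1.12, and was the highest P4 array in 24. P4 5 was below Control 5 in 45 of the 47, by a median difference of -2.19, while the median difference within numbers 4, 7 and 8 was 0.02, -0.03 and 0.21. The coherence was 0.0815 without P4 5. The members and groups were also chosen again without 1 Control array. The coherence of the then largest group was 0.049 without Control 5, 0.114 without Control 2 and 0.117 without Control 4. It was 0.119 without Control 8, 0.148 without Control 10 and 0.187 without Control 7. These largest groups held 39 to 70 members.

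The 3 most central members of group 1 were UF_Ppr_AF_100743 on contig FJU.9039.C1, UF_Ppr_AF_116818 on contig FJU.3001.C1 and UF_Ppr_AF_113380 on contig FJU.72.C1. UF_Ppr_AF_116818 was at -3.30, -2.04, -2.04 and -3.30 on P4 4, 5, 7 and 8, and at 0.56, -3.31, 0.15, -2.11, -3.64 and -2.23 on Control 2, 4, 5, 7, 8 and 10. UF_Ppr_AF_113380, at a higher level, was at -0.36, 1.59, 0.39 and 0.27 on P4 4, 5, 7 and 8, and at 4.25, -0.20, 3.68, 0.79, 1.1 and 2.02 on Control 2, 4, 5, 7, 8 and 10. Both were highest on Control 2 and Control 5, with P4 5 among the highest P4 arrays but below Control 5. The most central member, UF_Ppr_AF_100743, whose levels are given below, was also highest on Control 2 and Control 5. Its level on P4 5, however, was below those on P4 4 and P4 8.

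Group 3 (22 members, coherence 0.23 over P4) was high on Control 5. Its mean levels were -2.08, -1.83, -2.93 and -3.18 on P4 4, 5, 7 and 8, and -2.11, -1.71, 0.96, -2.83, -3.87 and -3.52 on Control 2, 4, 5, 7, 8 and 10. Control 5 was the highest Control array in 20 of the 22, and P4 4 and P4 5 were each the highest P4 array in 10. P4 5 was below Control 5 in 19, by a median difference of -2.70. With 1 P4 array left out at a time the coherence of group 3 was 0.172 to 0.334, lowest without P4 8. Independent members would give 0.045. The central members UF_Ppr_AM_119283, UF_Ppr_AF_106104 (contig FJU.3418.C1) and UF_Ppr_AF_104369 were at -4.78, -6.01 and -4.81 on P4 5, against 0.65, -1.38 and 0.04 on Control 5.

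**Figure D5:**
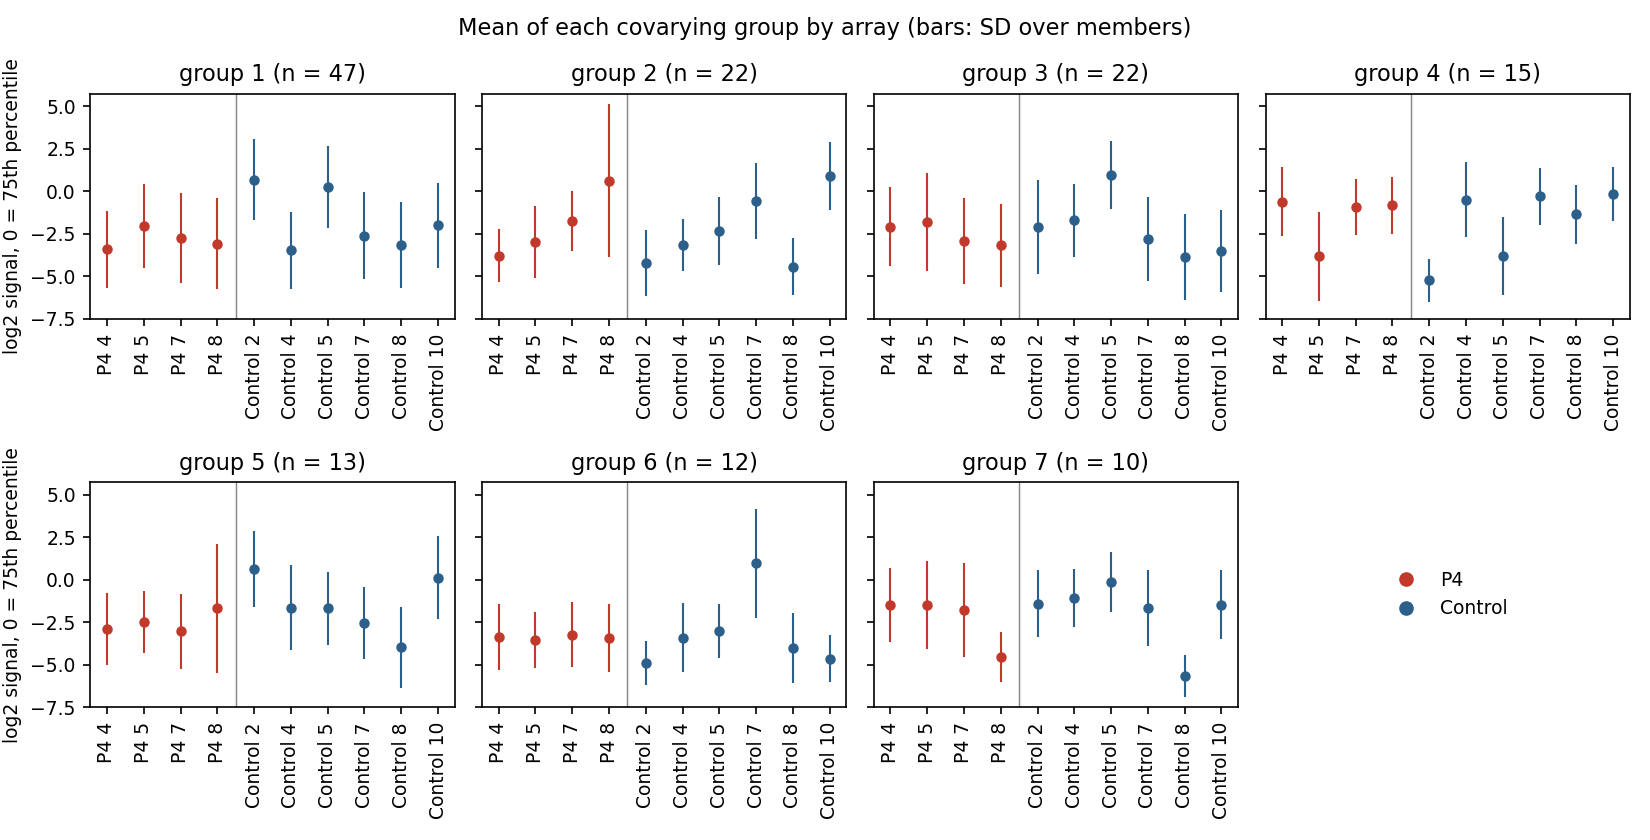
Mean level (log2, array 75th percentile at 0) of the members of each covarying group with at least 10 members, on each P4 array (left) and each Control array (right), with bars of 1 SD over the members of the group. Groups 4 and 7 follow the same course over the shared numbers, group 2 parts at number 8, groups 1 and 3 part at number 5, and group 6 parts at number 7.

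Group 5 (13 members, coherence 0.13 over P4) was high on Control 2 and Control 10, the numbers without a P4 array. Its mean levels were -2.90, -2.47, -3.04 and -1.68 on P4 4, 5, 7 and 8, and 0.65, -1.64, -1.69, -2.54, -3.98 and 0.10 on Control 2, 4, 5, 7, 8 and 10. P4 8 was above Control 8 in 12 of the 13, by a median of 1.98 log2 units. UF_Ppr_AF_109738, on contig FJU.12450.C1, was at -0.22 on P4 8 and -4.65 on Control 8. The more central members UF_Ppr_AF_118032 (contig FJU.782.C1) and UF_Ppr_AF_109466 (contig FJU.10416.C1) were at -5.86 and -6.23 on P4 8, and at -7.18 and -7.14 on Control 8. Without P4 8 the coherence of this group was 0.0765.

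Group 6 (12 members) did not move together in P4. Its coherence there was 0.02, below the 0.08 of independent members. Its mean levels were -3.37, -3.53, -3.23 and -3.44 on P4 4, 5, 7 and 8, and -4.91, -3.40, -3.03, 0.96, -4.01 and -4.63 on Control 2, 4, 5, 7, 8 and 10. Only Control 7 stood apart in these means. Of its 12 members, 5 had a spot on Control 7 that the scanner software marked as non-uniform. They lay together on that array, within rows 131 to 138 and columns 2 to 4, and they are all the members with such a mark on any array.

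UF_Ppr_AF_118926, on contig FJU.10066.C2, is one of the 5. It was at -4.75, -5.20, -5.04 and -5.07 on P4 4, 5, 7 and 8, and at -4.56, -5.23, -4.71, 5.78, -4.90 and -5.50 on Control 2, 4, 5, 7, 8 and 10. Control 7 was 1297-fold above the highest other array, and the other 9 arrays lay within 1 log2 unit of each other. For UF_Ppr_AF_111438 (contig FJU.7569.C3), UF_Ppr_AF_102767 (contig FJU.6843.C1), UF_Ppr_AF_110593 (contig FJU.7993.C2) and UF_Ppr_AF_117970 (contig FJU.5653.C1) the level on Control 7 was 6.11, 5.71, 0.24 and 2.03. They were 804-fold, 163-fold, 21.9-fold and 18.2-fold above the highest other array. The remaining 7 members of group 6 exceeded the highest other array on Control 7 by a median of 0.18. The large Control SD of the 5 marked members thus rests on 1 array and on spots with a quality mark, and 3 of the 5 are among the 10 members with the largest Control SD.

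More generally, 36 members (18.0%) owed their Control SD to a single array, in that leaving it out lowered the SD to under 0.5 of its value, against 10.0% of the other detected probes. The array was high in 16 and low in 20. Control 7 was the high array in 6 members, of which 5 carry the mark, and Control 8 and Control 10 were the low array in 6 each. For 21 of the 36 the number has a P4 array, and in 10 of these that P4 array was extreme in the same direction by more than 1 log2 unit.

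Few features that the rule did not use could be examined, as the probes carry no gene names. Among the 165 members that name a contig, no 2 came from the same cluster of the assembly. For 34 members, further probes of the same cluster were among the 11735 candidates, 55 in all, and as these are not members their Control SD lies below the threshold by the rule. Of the 55, 7 were a second probe of the member's own contig. Their Control SD was 0.46 to 1.30 with a median of 1.15, and 3 of the 7 had the same highest array as the member. The median P4 SD of these 7 was 0.33, against 0.34 for all other detected probes. Whether a member's spread is that of its transcript or of its probe alone was not tested. The other 48 were on another contig of the cluster. Their Control SD was 0.13 to 1.59 with a median of 0.72, and 9 of the 48 had the same highest array. The median P4 SD of these 48 was 0.43. A reverse-complement mark in the probe annotation was carried by 36 members (18.0%), against 22.1% of the other detected probes.

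The comparison of progesterone with control asks which transcripts change within 12 h of exposure. For the members it was read from a limma fit over all 14096 probes that were well above background on at least 4 arrays. The members were chosen for a large spread among the Controls, which is part of the error of this test. No member passed an adjusted p of 0.05 (0 of 200), and the share called over all probes was 0.0%. The lowest adjusted p was 0.9997 in limma. At an unadjusted p under 0.05 there were 5 members, all lower in P4, where 1.22% of all probes passed, 0.383% as lower and 0.837% as higher. When a Control array was left out, the members were chosen again. The count was then 0 without Control 2, with 153 members shared, and 1 without Control 5, with 156 shared. For the same 200 members it was 0 without P4 7 and 2 without P4 4 or without P4 5. Within slide 1 (P4 5 and P4 8 with Control 8) it was 27 members, where 6.73% of all probes passed. Control there is 1 array, which is the lowest Control array in 74 members, and it is assumed to vary like the P4 arrays, so that this count compares arrays rather than conditions. Within slide 3 (P4 4 and P4 7 with Control 2 and Control 7) it was 12, where 2.29% passed. A fit with the number as a replicate block gave 10 members, 2 higher and 8 lower, where 1.93% of all probes passed, 1.26% as higher and 0.667% as lower. The lowest adjusted p was then 0.9838 in limma and again 0 members passed.

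The median difference of P4 minus Control was -0.30 log2 units over the members and 0.04 over all probes in the fit. The mean was lower in P4 for 126 members (63.0%), against 44.9% of all probes. The Control levels that chose the members also enter this difference, so its direction is not independent of the choice. With the number as a block the medians were -0.22 and -0.01, and the difference of 56 of the 200 members changed sign. Within slide 3 the median of the members was -0.71, but within slide 1, against Control 8 alone, it was 0.61 and 74 members were lower. A member's difference had a median standard error of 0.97, and its 95% confidence interval a median extent of 2.13 log2 units to either side, against 0.34 and 0.75 over all probes. With the number as a block the median standard error of the members was 0.41 and that of all probes 0.27. The levels of P4 and Control did not overlap in 1 member, UF_Ppr_AF_100743, and in 34 probes of the fit (0.241%).

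UF_Ppr_AF_100743, central in group 1, had the smallest unadjusted p of the members. It was at -4.20, -4.59, -4.97 and -4.04 on P4 4, 5, 7 and 8, and at -0.14, -3.95, -0.23, -3.64, -3.69 and -2.86 on Control 2, 4, 5, 7, 8 and 10. All P4 arrays were below all Control arrays, but the Controls of numbers 4, 7 and 8 lay close above them and only Control 2 and Control 5 far above. The difference was -2.03 ± 0.79 (SE), with a 95% interval of -3.77 to -0.29 and an adjusted p of 0.9997 in limma. With the number as a block it was -1.57.

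UF_Ppr_AF_113719, on contig FJU.702.C1, and UF_Ppr_AF_113083, on contig FJU.487.C7, followed among those lower in P4. UF_Ppr_AF_113719 was at -2.77, 0.18, -1.73 and -1.1 on P4 4, 5, 7 and 8, and at 2.11, 1.37, 1.84, -0.61, -2.14 and 1.92 on Control 2, 4, 5, 7, 8 and 10. UF_Ppr_AF_113083 was at -5.69, -5.67, -5.69 and -5.88 on P4 4, 5, 7 and 8, and at -2.36, -3.82, -2.04, -4.85, -6.54 and -3.80 on Control 2, 4, 5, 7, 8 and 10. In both, Control 8 lay within or below the range of the P4 levels, and P4 was higher than Control in number 8 alone. The P4 levels of UF_Ppr_AF_113083 had the smallest SD of all members, 0.10.

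The members with the smallest p among those higher in P4 were UF_Ppr_AF_102575, UF_Ppr_AF_108288 and UF_Ppr_AF_118902, with differences of 1.31, 1.40 and 1.08. UF_Ppr_AF_102575, on contig FJU.10146.C1, was at -2.16, -2.73, -2.05 and -2.18 on P4 4, 5, 7 and 8, and at -2.63, -3.05, -3.53, -3.32, -1.95 and -7.05 on Control 2, 4, 5, 7, 8 and 10. Control 10 alone was far below, and its number has no P4 array. UF_Ppr_AF_108288, on contig FJU.141.C3, and UF_Ppr_AF_118902, on contig FJU_SB_30.819.C1, were lowest on Control 2 and Control 10, at -5.52 and -3.71 and at -3.05 and -5.69. With the number as a block, which takes the difference from the shared numbers, the differences of these 3 members were 0.68, 0.23 and -0.22.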

How the data were processed

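RNA of 10 explants was measured on 1 array each, and groups and numbers were taken from the sample titles. The deposited scanner files give a linear intensity per spot. Per the file headers, Feature Extraction 10.7.1.1 had subtracted the background and removed spatial trends, with no normalisation between arrays. The authors' deposited value table, on a log2 scale, was used as an alternative. Each of its columns had a Spearman correlation of at least 0.9997 with its own array and at most 0.985 with any other, so its direction is that of the signal and genes were not centred, and its column medians were 8.24 to 8.34. The authors' normalisation of it between arrays: not given in the sources used here.

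Control spots were left out, and log2 signal minus the array's 75th percentile was used. Each array had 15208 such spots for 15208 probe names. Each probe was thus 1 spot, and averaging by probe name changed nothing. P4 and Control were compared over the 10 arrays in limma 3.58.1 (R 4.3.3, lmFit and eBayes, two-sided, Benjamini-Hochberg adjustment over 14096 probes, threshold 0.05), which was tested on simulated data. Grouping used scipy 1.17.1, numpy 2.4.6 and pandas 2.3.3 in Python 3.11.15, and figures matplotlib 3.10.9. The precision is limited by the number of arrays.

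Numbers 4, 5, 7 and 8 occur in both groups. Across the probes of the fit, deviations from the group mean correlated between same-numbered arrays by at least 0.312 and between different numbers by at most 0.217. Taking deviations from the group mean in part lowers the values between different numbers. The pairing therefore comes from the data and not from the labels, and it is less clear for numbers 7 and 8. Over the members, P4 8 had r 0.257 with Control 8 and 0.405 with Control 10. Over the other detected probes these were 0.380 and -0.008. Over the other detected probes, P4 7 had r 0.282 with Control 7 and 0.265 with Control 10. Over the members these were 0.555 and 0.141. The fit was repeated with the number as a block.

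The members and lists were chosen with earlier results of these data known. Probes were named by rule: the 10 largest Control SDs, the 5 largest P4 SDs, the 3 most central members of each covarying group, the 3 smallest p in each direction, and those at the threshold. Marker lists need gene names, and 0 probes had one. Alternatives covered scaling, input signal, filters, number of members, tree cut, slide, block and leaving out each array. Columns mapped to no sample numbered 0.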

Additional observations from a re-analysis of the deposited data

Results flagged for a closer look

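The levels of the named members and the array-wide measures were examined in each group for a sample far from the others, in 80 combinations of measure and group. By chance about 1 in 20 groups would show one, and 12 did, 4 in P4 and 8 in Control. The members were chosen for their spread over Control, so an array that stands apart there is part of how they were chosen. Control 7 stood apart for UF_Ppr_AF_118926 (5.78), UF_Ppr_AF_111438 (6.11), UF_Ppr_AF_102767 (5.71), UF_Ppr_AF_117970 (2.03) and UF_Ppr_AF_110593 (0.24), the members with marked neighbouring spots. UF_Ppr_AF_118227 stood apart on P4 8 (-5.45) and on Control 8 (-6.50), in the same direction in both groups. UF_Ppr_AF_117142 stood apart on P4 5 (-5.15). UF_Ppr_AF_113083 did so on P4 8 (-5.88) although its P4 SD was only 0.10, because the gap is weighed against the group's own range. UF_Ppr_AF_100015 stood apart on Control 8 (-4.42) and UF_Ppr_AF_102575 on Control 10 (-7.05). The 75th percentile of the signal on P4 4 was 1882 intensity units, apart from 3100 to 3350 on the other P4 arrays. Its part in the results was not tested beyond the change of scaling.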

How the results depend on the processing

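The 200 members overlapped those chosen after median scaling in 181, after quantile normalisation in 183, from the authors' value table in 183 and after normexp with quantile normalisation in 151. The members' median P4 SD was 1.099 after normexp with quantile normalisation, 1.92 with 100 members and 1.00 with 400. The share also among the most variable over P4 was 50 of 100 and 175 of 400, all 100 being among the 200. The same number was highest in both groups in 43 of the 100 (43.0%), against 36.7% of the other detected probes. With 400 members it was so in 198 (49.5%), against 36.3%. The largest group's P4 coherence was 0.117 with 400 members and 0.102 with the tree cut at 0.6. The count at an unadjusted p under 0.05 was 10 with the replicate block and, as alternatives added after seeing the data, 12 within slide 3 and 27 within slide 1, where 1 Control array stands for its group. None of the 22 alternatives to the limma test had a member past an adjusted p of 0.05 (0 members), and the replicate block changed no other call. The members' median difference was negative under each of the 5 scalings (-0.28 to -0.35), with each array left out (-0.21 to -0.54) and with the replicate block (-0.22), and turned positive within slide 1 (0.61). All of these use Control levels that chose the members. The sign changed in 56 single members with the replicate block and in 14 to 45 with 1 array left out. In the ranges that follow, the members were chosen again where a Control array was left out and kept where a P4 array was. Leaving out 1 array at a time gave a median P4 SD of 1.07 to 1.46, 70 to 97 members among the most variable over P4 and a coherence of 0.0490 to 0.271. The mean same-number correlation was 0.418 to 0.669, and 153 to 176 members were shared. In limma 0 to 7 members had an unadjusted p under 0.05, and 0 to 0 passed at an adjusted p. The same number was highest in both groups in 99 to 133 members. Without an array of number 4, 5, 7 or 8, only 3 numbers remained to compare. The share was then 55.5% to 66.5% of the members, against 42.8% to 50.4% of the others. These were closest without Control 5, at 56.5% against 50.4%. The causes of these shifts were not tested beyond their construction. With 4 and 6 arrays, and with coherence over 4 arrays that 1 array can set, these values describe these explants.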
